A study of Mus musculus with 2 samples.

Results

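The genes described here are 36 type I interferon-stimulated genes of the mouse, chosen by symbol from a list, and measured in single liver cells of 2 libraries. All 36 symbols were present in both count files, among 28200 symbols in the files together. The list was matched by name only, with no use of measured values, and was proposed with other results of these libraries known. It holds the Ifit and Oas families, antiviral effectors such as Mx1, Bst2 and Rsad2, the ubiquitin-like modifier Isg15 with its protease Usp18, nucleic acid sensors, the transcription factors Irf7, Irf9 and Stat2, and Parp9, Parp14 and Dtx3l. The question asked of them was how their level differed between the libraries in each cell class, and whether a few cells or all cells carried the difference.

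Type I interferons bind the receptor formed by IFNAR1 and IFNAR2, and the kinases JAK1 and TYK2 then signal through STAT factors, STAT2 among them. With IRF9 these form the complex ISGF3, which binds interferon-stimulated response elements in promoters of genes such as those listed. In the liver, Kupffer cells, which are the resident macrophages, and sinusoidal endothelial cells both sense microbial nucleic acids and respond to interferon.

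The cells came from mice after partial inferior vena cava ligation, an operation that impedes the outflow of blood from the liver and produces congestion. The library called control carries the genotype label Ctgffl/fl, that is, floxed alleles of Ctgf (current symbol Ccn2), which encodes connective tissue growth factor, and no Cre. The library called knockout carries the label Cdh5-CreERT2; Ctgffl/fl, the same floxed alleles with a tamoxifen-inducible Cre under the endothelial Cdh5 promoter. Both mice were male littermates and both were operated on. The labels do not state their ages or the tamoxifen schedule. Livers were perfused with pronase and collagenase, most hepatocytes were spun out, and dead cells and erythrocytes were removed on a density gradient. The sample titles name the genotypes the other way round, whereas the library names go with the genotype labels. In endothelial-gated cells Ccn2 stood at 984 CPM (counts of a gene scaled to a class total of 1000000) in the library labelled control and at 4.43 CPM in the library labelled knockout, and in mesenchymal cells at 1265 and 1187 CPM, so the counts went with the genotype labels.

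Each group is 1 library from 1 mouse. No test between genotypes is possible, and mouse, library and genotype cannot be told apart. Levels carry exact Poisson intervals and ratios exact binomial intervals at 95%, which cover counting error only. The labels do not state whether reads were collapsed by molecular identifier, so the intervals may be too narrow even for that. A gene is called lower or higher when the libraries differ at least 1.5-fold, as a rule of size. The deposited matrices held 106208933 and 129802501 counts over 10000 barcodes each. After filtering, 7917 control and 8799 knockout cells remained, with medians of 7972 and 9506 counts, and 2 barcodes occurred in both libraries. Cells were gated per cell on marker genes into 19 classes, and 29.99% of control and 22.8% of knockout cells, among them cells with markers of several lineages, stayed outside every class.

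The promoters of some members with lower endothelial levels, chosen with values known, are shown to let the letters of the element that ISGF3 binds be seen where they occur. The letters searched were GAAANNGAAA and, for the other strand, TTTCNNTTTC, with overlapping matches allowed. Promoter windows from RefSeq, build GRCm38.p6, were matched for 26 of the 36 members, and 13 of the 26 held a match. Some members have more than 1 window, and 14 of their 32 windows (43.8%) held a match, against 3.44% of the 32851 windows in the table. A match is a description of letters and not a tested site. Each line runs 5′ to 3′ on the strand of the gene, from 250 bases before its start to 50 bases after it, with matches in capitals. Isg15 (chr4:156200769-156201068, minus strand) has 3 overlapping matches, and Ifit1 (chr19:34640639-34640938, plus strand), Ifit3 (chr19:34583279-34583578, plus strand) and Ifit3b (chr19:34607707-34608006, plus strand) have 2 each. Irf7 (chr7:141266375-141266674, minus strand) and Ifi44 (chr3:151749861-151750160, minus strand) have none in this window. Of the members not printed, Oasl1, Oasl2 and Dtx3l were lower and have none, and Ifi203 was lower and has a match in only some of its windows. Matches also occur in members not called lower in endothelial cells, such as Bst2, Oas1a and Stat2, while others of these, such as Irf9, have none.
Isg15: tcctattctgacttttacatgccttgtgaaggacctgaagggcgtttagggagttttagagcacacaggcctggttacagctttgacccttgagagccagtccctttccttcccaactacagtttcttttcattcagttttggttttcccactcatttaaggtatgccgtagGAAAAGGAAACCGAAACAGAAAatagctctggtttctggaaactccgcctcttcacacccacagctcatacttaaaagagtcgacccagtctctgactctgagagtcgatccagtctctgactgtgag
Ifit1: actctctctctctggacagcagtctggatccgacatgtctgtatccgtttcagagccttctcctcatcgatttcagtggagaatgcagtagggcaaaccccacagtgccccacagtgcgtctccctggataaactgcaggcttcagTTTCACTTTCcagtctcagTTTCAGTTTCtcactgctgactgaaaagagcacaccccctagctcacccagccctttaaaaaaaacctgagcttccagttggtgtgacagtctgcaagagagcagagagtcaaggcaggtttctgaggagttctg
Ifit3: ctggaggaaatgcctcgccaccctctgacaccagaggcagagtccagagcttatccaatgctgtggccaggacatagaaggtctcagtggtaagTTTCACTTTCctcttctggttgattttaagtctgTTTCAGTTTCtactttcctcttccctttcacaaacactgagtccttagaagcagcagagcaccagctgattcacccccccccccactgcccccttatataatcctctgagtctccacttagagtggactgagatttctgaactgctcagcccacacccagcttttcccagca
Ifit3b: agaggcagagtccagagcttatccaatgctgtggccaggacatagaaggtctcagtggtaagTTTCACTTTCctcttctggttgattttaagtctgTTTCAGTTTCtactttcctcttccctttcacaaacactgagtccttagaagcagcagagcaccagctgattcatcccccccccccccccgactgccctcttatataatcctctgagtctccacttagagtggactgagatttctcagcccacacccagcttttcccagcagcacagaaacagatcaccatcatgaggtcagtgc
Irf7: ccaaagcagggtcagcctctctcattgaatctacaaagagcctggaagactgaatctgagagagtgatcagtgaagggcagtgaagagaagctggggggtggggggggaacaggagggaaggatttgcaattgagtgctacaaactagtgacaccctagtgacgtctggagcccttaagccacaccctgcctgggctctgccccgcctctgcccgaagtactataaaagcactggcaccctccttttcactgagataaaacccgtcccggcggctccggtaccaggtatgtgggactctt
Ifi44: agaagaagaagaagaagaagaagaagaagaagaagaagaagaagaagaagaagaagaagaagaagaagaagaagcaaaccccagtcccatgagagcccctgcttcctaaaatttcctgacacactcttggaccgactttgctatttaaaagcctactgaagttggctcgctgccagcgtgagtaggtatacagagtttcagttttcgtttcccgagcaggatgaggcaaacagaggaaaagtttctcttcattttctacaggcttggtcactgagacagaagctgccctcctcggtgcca
The windows of Ifit3 and Ifit3b share long stretches, and the genes are close copies. Reads could be split between them by the counting, so their separate values are uncertain, as are those of Oas1a, Ifi203 and Trim30a, which also have near copies.

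In endothelial-gated cells, identified by the fixed endothelial markers, nearly all interferon-stimulated genes had a ratio below 0, and fewer were lower by the rule of size. Of the 36 members, 34 passed the filter on low counts. By size, 16 of the 34 were at least 1.5-fold lower and none was higher, against 13.1% and 5.13% of all 10337 genes measured in these cells. The ratio was below 0 on the log2 scale for 33 of the 34, with a median of -0.51, while the median over all genes was -0.05. The summed level was 3358 CPM in 1895 control cells and 2295 CPM in 3567 knockout cells, a log2 ratio of -0.55 (95% counting interval -0.57 to -0.53). Another scaling (TMM) moved all endothelial ratios up by 0.15, which gave a median of -0.37 for the members and 0.10 for all genes.

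Among the Ifit genes, which encode proteins that bind viral RNA, Ifit1 had 68.9 CPM (64.8 to 73.1) in control and 30.4 CPM (28.4 to 32.4) in knockout endothelial cells. Ifit3 had 137 and 85.4 CPM. Ifit2 had 87.4 and 88.1 CPM, with overlapping intervals. The family therefore did not move as 1 block, and Ifit2 was the single measured member with a ratio above 0 here. Of the Oas family, whose products make the activator of RNase L or, for the Oasl proteins, resemble those enzymes, Oasl1 had 24.0 and 9.31 CPM, Oasl2 175 and 110 CPM, and Oas1a 20.4 and 14.9 CPM. All 4 measured Oas genes had ratios below 0, and Oasl1, Oasl2 and Oas2 were at least 1.5-fold lower.

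The ubiquitin-like modifier Isg15 had 52.4 CPM (48.9 to 56.2) in control and 18.8 CPM (17.3 to 20.4) in knockout cells, a log2 ratio of -1.48. Usp18, which removes Isg15 from proteins and dampens receptor signalling, had 392 and 395 counts from unequal totals, or a log2 ratio of -0.95. Herc6, a ligase for Isg15 in the mouse, had 28.2 and 26.3 CPM with overlapping intervals. The antiviral effectors had a median log2 ratio of -0.44, against -0.51 for all measured members. Bst2, or tetherin, which holds budding virions at the membrane, had 281 and 209 CPM, Rsad2, or viperin, a log2 ratio of -0.44, and Trim30a 177 and 171 CPM. None of the 8 measured members of that group was 1.5-fold lower, against 13.1% of all genes, although all 8 ratios were below 0. Mx1 and Oas3, at 6.03 CPM each in control, and 1.49 and 0.79 CPM in knockout, did not reach the minimum mean level.

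The sensor Zbp1, which recognises Z-form nucleic acids, had the lowest ratio of the measured members. It had 17.6 CPM in control and 4.10 CPM in knockout cells (log2 -2.10, -2.42 to -1.79). With each cell thinned to 2800 counts its ratio was -1.49, and those of Ifi27l2a and Irf7, at -1.96 and -1.58, were lower. Ifi27l2a, an interferon-induced mitochondrial protein gene, had 43.9 and 10.9 CPM (log2 -2.01). Irf7, the transcription factor that amplifies interferon production, had 83.0 and 27.4 CPM (log2 -1.60). Its partners in the response stood closer together, Irf9 at 118 and 90.8 CPM and Stat2 at 116 and 87.1 CPM. Ifi203, of the family of interferon-inducible DNA-binding proteins, was the member with most counts, at 415 and 238 CPM. Parp14 had 147 and 122 CPM, and Dtx3l, the ligase partner of Parp9, 126 and 80.5 CPM.

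**Figure D1:**
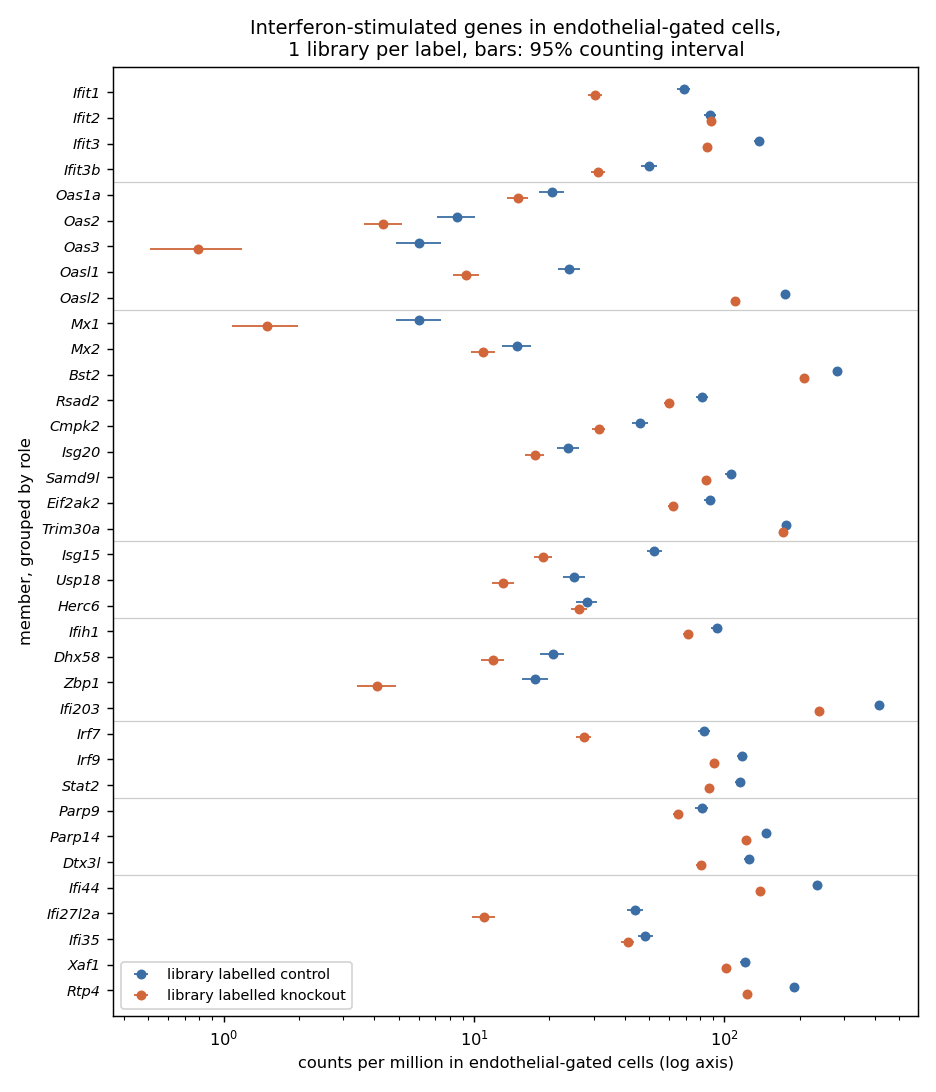
Level of each member in endothelial-gated cells of the library labelled control (blue) and the library labelled knockout (orange), in CPM on a log axis, with 95% counting intervals. The knockout point lies to the left for nearly all members, furthest for Zbp1, Ifi27l2a, Irf7 and Isg15 among those measured, and the points of Ifit2, Trim30a and Herc6 nearly coincide.

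Markers of myeloid cells were also lower in endothelial cells of the library labelled knockout. The 8 Kupffer markers summed to 395 and 206 CPM, and 7 of the 8 were lower. The 7 classical monocyte markers summed to 179 and 53.4 CPM, and 6 of the 7 were lower. None of these markers was at 0 in either library. In the 601 control and 1198 knockout endothelial cells without a count of 11 myeloid markers, an alternative chosen after the data were seen, the median ratio of the members was -0.44 and 13 of 33 members were lower, against 12.1% of all genes measured in those cells. Zbp1 there had a log2 ratio of -1.35, Irf7 of -1.17 and Ifi27l2a of -1.57, each closer to 0 than in all endothelial cells, while Isg15 had -1.41 and Ifi203 -0.82. Ifi44, with 234 CPM in control endothelial cells and 139 CPM in knockout, had no more than 62.6 CPM in a myeloid class of the control. Of the 36 members, 6 had a higher control level in endothelial cells than in every myeloid class compared, Ifi44 among them. Zbp1, Ifi27l2a and Irf7 had 13.6%, 11.7% and 26.5% of the highest myeloid level in control. The part of myeloid RNA in these ratios was not tested.

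Mesenchymal cells, the class that holds stellate cells and myofibroblasts, showed a similar size of difference. Of 35 measured members, 15 were lower and none higher, against 12.5% and 8.31% of all genes measured there, and the median log2 ratio was -0.49. The sum was 3642 CPM in 573 control cells and 2559 CPM in 528 knockout cells. Rsad2 had 33.4 and 10.3 CPM (log2 -1.70), Zbp1 43.8 and 16.7 CPM, Bst2 166 and 69.9 CPM, and Ifi27l2a 506 and 223 CPM. Ifit3, at 257 and 214 CPM, and Ifit2, at 69.5 and 73.4 CPM, differed less than 1.5-fold. Of the antiviral effectors 5 of 9 were lower here, and none of 8 in endothelial cells, against 12.5% and 13.1% of all genes. The 8 Kupffer markers in these cells summed to 722 CPM in control and 1731 CPM in knockout, with 3 higher and 5 lower, and the 7 markers of scar-type macrophages to 471 and 225 CPM, with all 7 lower. Their part in the result was not tested.

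In Kupffer-gated cells the median difference was closer to 0, at -0.30, but it was -0.42 with classes from clusters, where that of endothelial cells was -0.46. All 36 members were measured, 5 were lower and none higher, against 6.33% and 4.06% of all genes measured there. The 5 were Ifi44, Isg15, Rsad2, Ifit1 and Usp18. Ifi44 had 54.2 and 28.7 CPM, Isg15 35.4 and 22.1 CPM, Rsad2 91.9 and 57.8 CPM, and Ifit1 42.1 and 27.0 CPM. Members with high levels in these macrophages did not move alike. Ifi203 had a log2 ratio of -0.58, short of 1.5-fold, and Oasl2 had 247 and 185 CPM. Others differed little or lay on the other side of 0. Irf7 had 313 and 304 CPM with overlapping intervals, Trim30a had 365 and 386 CPM, and Ifi27l2a had 286 and 337 CPM. A cluster led by the resident Kupffer genes held 53.8% of control and 89.3% of knockout cells of the gate, and an unnamed cluster led by Mmp12 and Gpnmb 31.5% and 2.64%. The summed level was 4645 CPM in 946 control cells and 4054 CPM in 1401 knockout cells. The 7 markers of scar-type macrophages summed to 2698 and 1479 CPM in the Kupffer gate, and their part in the result was not tested.

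The classical monocyte gate held 605 control and only 107 knockout cells. Of its 36 measured members 14 were lower and none higher, against 12.1% and 11.9% of all genes measured there, and the median log2 ratio was -0.45. All 4 Ifit genes were at least 1.5-fold lower, among them Ifit3 with 87.4 and 30.8 CPM. Isg15 had 46.7 and 14.9 CPM and Rsad2 47.5 and 14.9 CPM, each knockout value resting on 15 counts. Ifi44 had 40 and 3 counts (log2 -1.86, -4.20 to -0.21). Ifi27l2a, with 376 and 519 CPM, was on the other side. The call depended on where the class was drawn. A cluster with leading genes Vcan, F13a1 and Ccr2, which held 64.5% of the control and 66.4% of the knockout cells of the gate, had a summed level of 3448 CPM in control and 3555 CPM in knockout, with a median log2 ratio of -0.00045. The gate also took 32.6% of its control cells from an unnamed cluster with a summed control level of 5110 CPM, which supplied 8.41% of its knockout cells. An unnamed cluster led by Prg2, Mpo and Elane supplied 1.16% of its control and 24.3% of its knockout cells. The summed level in that cluster was 1610 CPM in control and 1346 CPM in knockout. The part of these clusters in the result was not tested. Mpo, Elane, Prtn3 and Ctsg encode granule proteins of neutrophil and monocyte precursors. Cells of the gate with at least 3 counts of these genes together had been set apart after the cells were seen. These 21 control and 100 knockout precursors had low and similar member levels, 1044 and 1011 CPM in sum. Kept in the gate, they would have moved the median to -1.38 with 34 members lower, against 16.8% of all genes.

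T cells and B cells had fewer counts. In T cells, 17 of 31 measured members were lower and 1 was higher, against 11.8% and 11.9% of all genes measured there, with a median log2 ratio of -0.69. With a stricter gate (111 and 216 cells) the median was -0.38 and 8 of 28 were lower, against 12.3% of all genes. In the same cells the 7 classical monocyte markers, some of which T cells also express, summed to 2099 and 1289 CPM, with 4 lower, and the 7 hepatocyte markers to 413 and 99.3 CPM, with 5 lower. Their part in the result was not tested. Usp18 had 33.3 and 6.17 CPM (39 and 10 counts), Isg15 20.5 and 4.93 CPM, Ifit3 40.2 and 12.3 CPM, and Bst2 47.0 and 15.4 CPM. Dtx3l and Trim30a, which had more counts, stood at 223 and 197 CPM and at 226 and 203 CPM. Ifih1, the RNA sensor MDA5, was the higher one, with 29 and 73 counts (log2 0.86, 0.22 to 1.53). In B cells, 18 of 26 measured members were lower and none higher, against 13.2% and 15.2% of all genes measured there, with a median log2 ratio of -0.92. Over the alternatives that median ranged from -0.40, without the top 10% of cells, to -1.49, with classes from clusters. In the latter, 26 of 36 members were lower, against 19.7% of all genes. The 7 markers of scar-type macrophages summed to 118 and 37.8 CPM in B cells, with all 7 lower, and the hepatocyte markers to 451 and 144 CPM, with 5 of 7 lower, and their part in the result was not tested. Ifit3 had 32 counts in control and 4 in knockout, Isg20, an exonuclease, 23 and 7, and the GTPase Mx1 15 and 5. Samd9l, a restriction factor with its highest level in B cells, had 324 and 436 CPM and lay on the other side. Ifi203 had 678 and 418 CPM in B cells and 544 and 355 CPM in T cells.

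In conventional dendritic cells of type 1 (74 and 73 cells), 7 of 31 measured members were lower and 2 higher, against 10.6% and 12.6% of all genes measured there. In type 2 (154 and 68 cells), 18 of 36 were lower and 1 higher, against 13.7% and 13.2%, and an unnamed cluster held 122 and 51 of those cells. In NK cells and ILC1 (106 and 82 cells), 4 of 19 were lower and none higher, against 13.2% and 18.6%. Hepatocyte-gated cells had 29 of 30 members lower, but 52.2% of all genes measured there were lower too. Their median mitochondrial share was 1.12% in control and 12.1% in knockout cells, so their member ratios are given as values only.

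**Figure D2:**
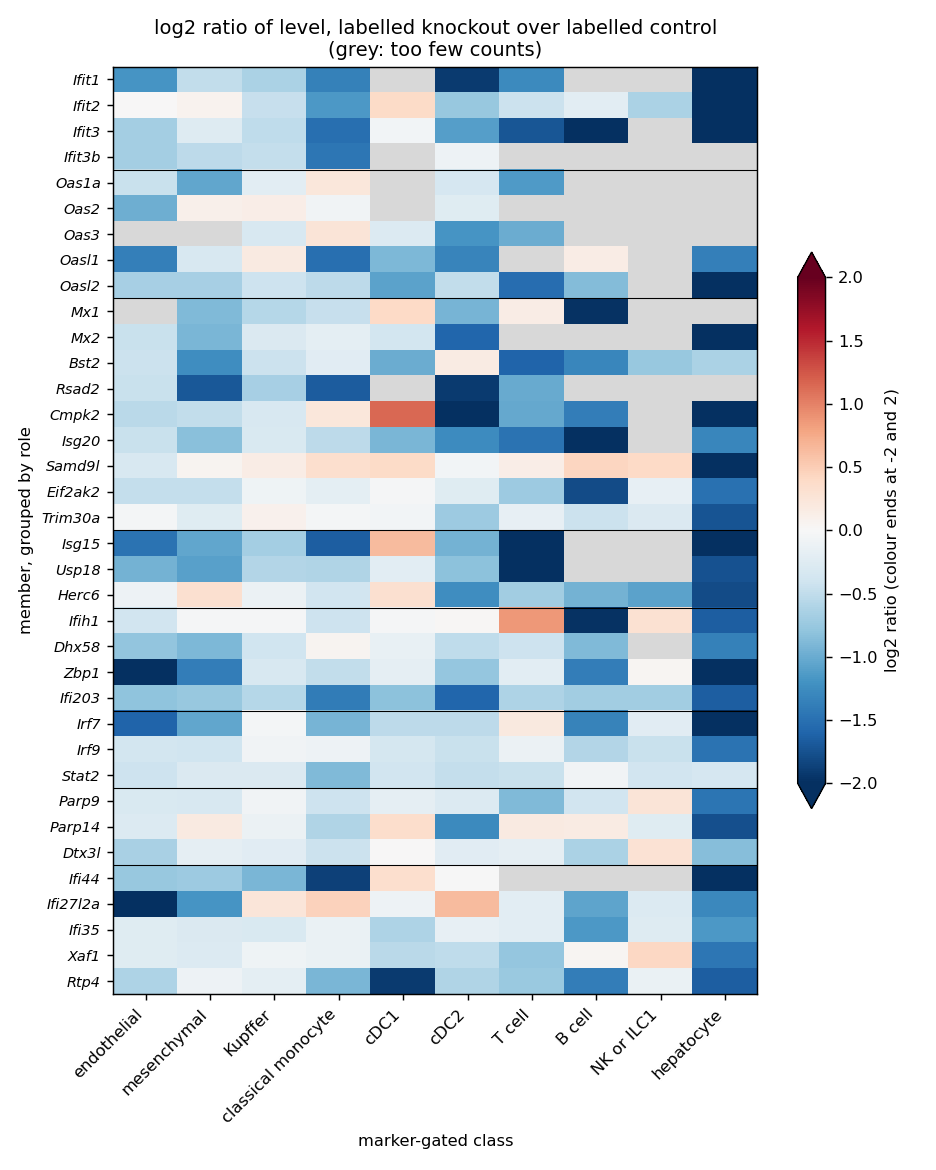
Log2 ratio of each member's level, labelled knockout over labelled control, in the 10 classes with at least 50 cells per library. Blue is lower and red higher in the library labelled knockout, and grey marks members with too few counts. Blue prevails in all columns, Ifi203 is blue across the row, and Samd9l, with a median of 0.14 over the classes other than hepatocytes, is the exception among rows.

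In endothelial cells the difference was spread over the range of cells. Each cell was thinned to 2800 counts, a depth every cell reached, and the counts of the 36 members were summed per cell. In endothelial cells the 10th, 50th and 90th percentiles were 2, 8 and 18 member counts in control and 2, 5 and 12 in knockout. Without thinning, the medians were 27.1 and 18.6 member counts per 10000. In each of 10 equal bins of ranked cells the mean was lower in knockout. The mean was 9.30 in control and 6.43 in knockout. The top 10% of cells gave 26.4% of that difference, the next cells down to the median 52.5%, and the cells below the median 21.1%. Since the top 10% also held 27.2% of the control member counts, its part in the difference was close to its part in the counts. Cells above the control's 90th percentile made up 9.55% of control and 3.17% of knockout endothelial cells. In the top 10% a cell showed a median of 14 distinct members in control and 11 in knockout, so these cells were not high through 1 gene.

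Mesenchymal cells had the same pattern, with medians of 9 and 6 member counts, all 10 bins lower, and 23.5% of the difference in the top 10% against 25.3% of the control counts. In Kupffer cells the medians were 12 and 11, and all 10 bins were lower as well. The top 10% gave 31.0% of the difference while it held 21.0% of the control counts, and the cells below the median gave 24.9%. In lymphocytes the medians were 5 and 4 in T cells and 6 and 5 in B cells. All 10 bins were lower in T cells and in B cells, and the cells below the median gave 20.4% and 24.3% of the difference. The top 10% gave 43.5% of the difference in T cells, with 34.3% of the control counts, and 40.3% in B cells, with 27.2%. With the top 10% of each library removed, the median ratio of the members was -0.55 in endothelial, -0.46 in mesenchymal, -0.24 in Kupffer, -0.42 in T and -0.40 in B cells. The lower members in B cells then numbered 9 of 19 in place of 18 of 26, against 13.2% of all genes. The share of a class that lies in a tail was not tested between libraries.

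**Figure D3:**
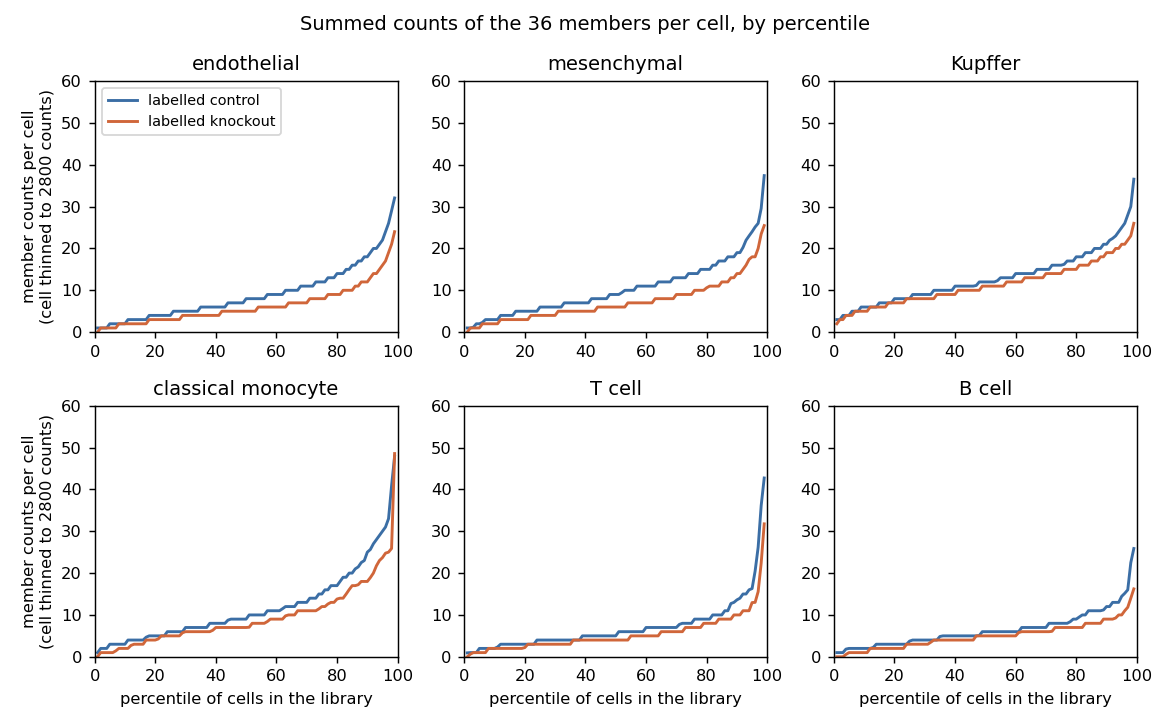
Summed counts of the 36 members per cell, after thinning to 2800 counts, against the percentile of cells within each library, for 6 gated classes. In endothelial and mesenchymal cells the knockout curve (orange) runs below the control curve (blue) over nearly the whole range, and in T and B cells the curves lie close together until the upper percentiles.

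The order of the cell classes was largely kept between libraries. Over the 10 classes with at least 50 cells in each library, 28 of the 36 members had their highest level in the same class in both. In control, 12 members were highest in Kupffer cells, 8 in mesenchymal cells, 6 in classical monocytes, and 2, Ifi44 and Bst2, in endothelial cells. Ifit1 was highest in mesenchymal cells, at 138 and 97.3 CPM, followed by endothelial cells at 68.9 and 30.4 CPM, with intervals apart in both libraries. Irf7 was highest in Kupffer cells, at 313 and 304 CPM, well above the next class, type 1 dendritic cells, at 138 and 96.1 CPM. Zbp1 was highest in classical monocytes, at 129 and 91.5 CPM, and lowest in endothelial cells. Oas1a in Kupffer cells (63.4 CPM) and classical monocytes (51.6 CPM) had overlapping intervals in control and changed places in knockout. Over the 9 classes without hepatocytes, the median ratio was below 0 for 35 of the 36 members, and Ifi203 was at least 1.5-fold lower in 8 of the 9.

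The libraries filled the endothelial and mesenchymal classes with different subtypes. Cells were clustered without the members and the other interferon lists. A cluster with Esm1, Lyve1 and Akap12 among its leading genes held 60.6% of control and 13.1% of knockout endothelial cells, and a cluster led by Clec4g and Dnase1l3 held 2.11% and 46.7%. A mesenchymal cluster led by Igfbp3, Tagln and Acta2 held 59.7% of control and 2.84% of knockout cells of that class, and one led by Ecm1, Hhip and Reln held 31.4% and 90.7%. The cluster led by Clec4g and Dnase1l3 and that led by Igfbp3 had too few cells in 1 library for a ratio. The summed member level in further endothelial, mesenchymal and Kupffer clusters was as follows. In the Esm1 and Lyve1 cluster (1194 and 467 cells) the sum was 3314 and 2234 CPM. In a cluster led by Adam23 and Cyp26b1 (161 and 1049 cells) it was 3868 and 2415 CPM, and in one led by Wnt9b and Rspo3, genes of pericentral endothelium (239 and 159 cells), 2732 and 2294 CPM, with 9 of 33 members lower against 15.9% of all genes in that cluster. In an endothelial cluster led by Clec4g, Esm1 and Adam23 (90 and 95 cells) the sum was 2756 and 2245 CPM. There 7 of 28 members were lower, against 17.9% of all genes. In the Ecm1 and Reln mesenchymal cluster (264 and 582 cells) it was 3860 and 2636 CPM. The Kupffer cluster led by Cd163, Clec4f and Timd4 (522 and 1288 cells) had 4927 and 4033 CPM and a median ratio of -0.42, with 9 members lower, against 5.10% of all genes measured in that cluster.

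**Figure D4:**
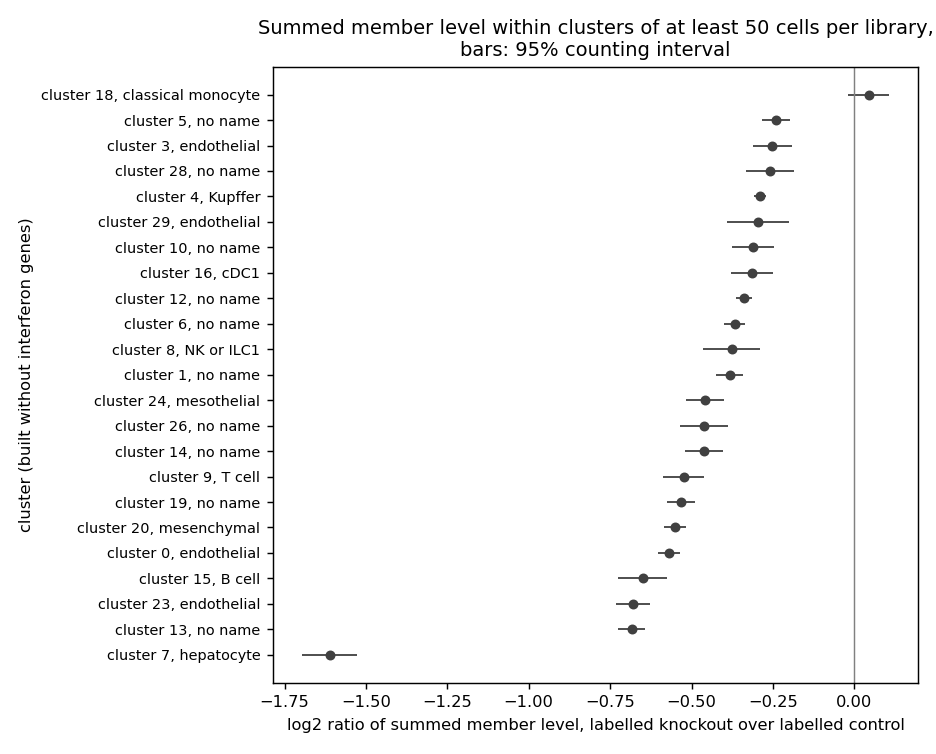
Log2 ratio of the summed member level, labelled knockout over labelled control, within each cluster with at least 50 cells per library, with 95% counting intervals. All clusters lie below 0 except the classical monocyte cluster, whose interval of -0.02 to 0.11 spans 0, and the hepatocyte cluster lies furthest out at -1.61.

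Other genes of the pathway were taken from fixed lists, chosen with earlier results of these data known. The genes named from each list are among those with its largest ratios in endothelial or Kupffer cells. Receptors and signalling genes (14 measured in endothelial cells) had a median log2 ratio of 0.04 there. Socs3, a feedback inhibitor in that list, had 127 and 189 CPM. In Kupffer cells that list had a median of 0.20, and Ifngr1, a chain of the receptor for interferon gamma, was higher, with 340 and 596 CPM. Sensors and adaptors had a median of -0.41 in endothelial cells with 5 of 14 lower, against 13.1% of all genes. Tlr7, a sensor of single-stranded RNA, had 14.9 and 4.39 CPM, and Irf5 10.3 and 3.67 CPM. Interferon-stimulated genes outside the members had a median of -0.43 in endothelial cells, with 11 of 39 lower and 1 higher, against the 13.1% and 5.13% of all genes given above, and of -0.08 in Kupffer cells, with 5 of 42 lower and 1 higher, against 6.33% and 4.06%. Targets preferred by interferon gamma had medians of -0.50 in endothelial and -0.20 in Kupffer cells. Among them the class II genes H2-Aa and H2-Ab1 had 452 and 153 CPM and 386 and 145 CPM in endothelial cells, and the GTPase gene Gbp2 had 131 and 71.0 CPM in Kupffer cells. Myeloid markers were also lower in the endothelial gate, as given above, and their part in the endothelial values of these lists was not tested.

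Few transcripts were seen of the type I ligands looked at. The interferon alpha genes were not used here. Ifnb1 had 6 counts in 3 of 7917 control cells and none in 8799 knockout cells, which allows a share of up to 0.0341% of cells with a count. Ifnab, Ifne, Ifnk and Ifnz had at most 6 counts in either library. Ifng, the gene of interferon gamma, had 151 counts in control and 262 in knockout. Of these, 27 and 102 lay in T cells (23.1 and 62.9 CPM). In NK cells and ILC1 there were 67 and 54 counts from unequal totals, or 108 and 116 CPM.

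Genes of cell stress and handling, such as immediate early and heat shock genes, were higher in the library labelled knockout in the same classes. Their median log2 ratio was 0.66 in endothelial cells with 9 of 15 higher, 1.12 in Kupffer cells with 12 of 15 higher, and 0.80 in mesenchymal cells with 8 of 15 higher. Of all genes measured in these classes, 5.13%, 4.06% and 8.31% were higher. Egr1 in Kupffer cells had 120 and 568 CPM. Hspa1b in endothelial cells had 41 and 370 counts, from unequal class totals of 15596000 and 30279100 counts. Hepatocyte markers, which can mark free RNA, summed to 348 CPM in control and 98.1 CPM in knockout endothelial cells. The part of these differences in the result on the members was not tested.

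**Figure D5:**
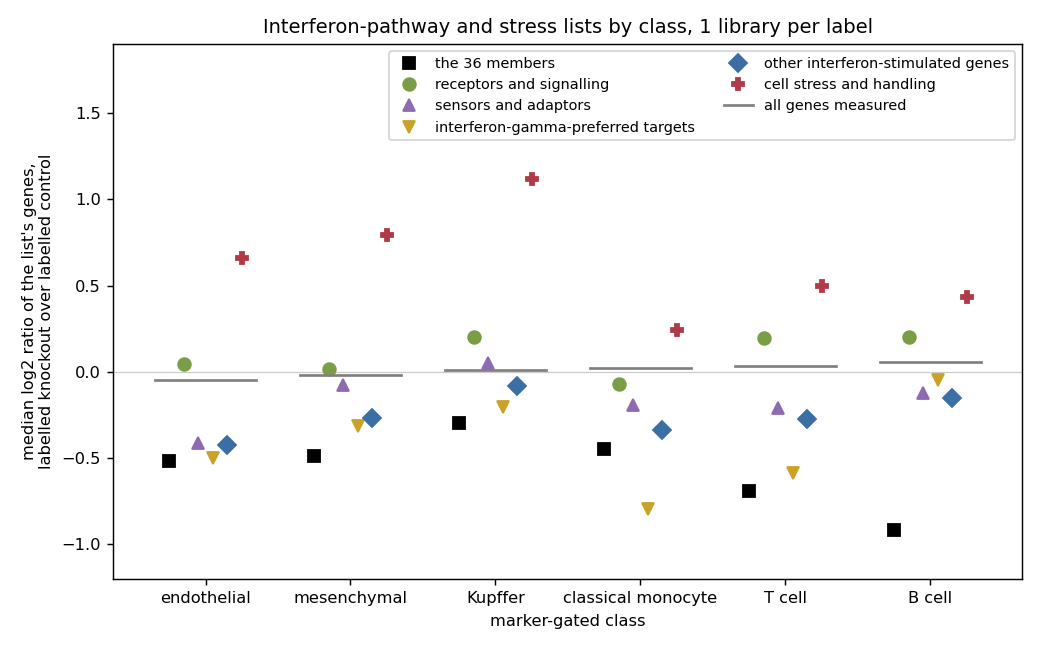
Median log2 ratio of each gene list, labelled knockout over labelled control, in 6 gated classes, with the median of all genes measured as a grey bar. The members (black squares) lie below the grey bar in each class, the receptors and signalling genes lie between -0.07 and 0.20, and the stress and handling genes lie above it.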

How the data were processed

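Per the labels' protocols, cells were captured with the BD Rhapsody whole transcriptome kit. The deposited files hold raw counts per gene and barcode. The submitters' processing notes name GRCm39; no aligner, counter or cell caller is named in the labels or file headers. Members and lists were chosen with earlier results of these data known. Groups follow the genotype labels.

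A barcode was kept if it had 300 genes or more, 500 counts or more, and a mitochondrial share of 25% or less. A class needed a marker score (mean log level over that of the 50 highest cells) of at least 0.4, and a score of another lineage at most 0.5 times as high. These limits were set after seeing the cells. Scrublet failed as a doublet caller, marking 0.0126% of control and 0.0114% of knockout cells; mixed-lineage cells stayed ungated, and removing the top 5% of scores was an alternative.

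Counts were summed per class (scipy 1.17.1) and given as CPM. A gene counted as measured with at least 20 counts and a mean of 5 CPM. A count of 0 was set to 3 for a ratio. Leiden clusters (scanpy 1.11.5, 2000 variable genes, 30 components, 15 neighbours, resolution 1.0) left out interferon genes. The TMM alternative used edgeR 4.0.16. The named members were the 4 largest ratios and 3 highest levels per class; others were picked with values known. The code recovered known ratios in simulated counts. Intervals cover counting error only. A gene of the signalling list is not reported here.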

Additional observations from a re-analysis of the deposited data

Results flagged for a closer look

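Ifi27l2a went in opposite directions between classes by more than 1.5-fold. Its log2 ratio, labelled knockout over labelled control, was 0.64 in type 2 conventional dendritic cells (226 and 189 counts, 192 and 299 CPM), but -2.01 in endothelial, -1.06 in B, -1.18 in mesenchymal and -1.29 in hepatocyte-gated cells. Ifih1 had a log2 ratio of 0.86 in T cells, on 29 and 73 counts, but -1.97 in B cells, on 18 and 6 counts, and -1.64 in hepatocyte-gated cells. With 1 library per label, these differences between classes were not tested. In hepatocyte-gated cells 52.2% of all genes were lower, so those ratios are values only.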

How the results depend on the processing

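The median ratio of the members was recomputed in 6 classes under stricter gates and filters, cluster-based classes, removal of likely doublets, thinning, per-cell means, TMM scaling, other count filters and removal of the top 10% of cells. Of 64 such medians, 63 were below 0. The endothelial median was -0.37 under TMM scaling. The classical monocyte median was 0.027 with classes from clusters, with 3 of 35 members lower and 6 higher. With precursors kept in it was -1.38, with 34 of 36 lower in place of 14. Of all genes measured, 14.2% and 16.8% were lower in those settings. The share of all genes higher is not given for the former, so its 6 higher members are a value only. Under classes from clusters, Ifit3 in classical monocytes was at 0.022 and Rsad2 at 0.85. Counts of lower members also made smaller moves. In Kupffer cells they were 9 (clusters) and 2 (top 10% removed) in place of 5, each of 36 measured. In T cells they were 8 of 28 (stricter gate) and 9 of 21 (25 CPM) in place of 17 of 31. In B cells they were 9 of 19 (top 10% removed), 8 of 14 (25 CPM) and 8 of 14 (without myeloid markers) in place of 18 of 26. Of all genes measured, in the same order, 5.10%, 6.49%, 12.3%, 7.47%, 13.2%, 9.23% and 13.3% were lower. The cause of the moves was not tested, beyond fewer genes measured. No paired analysis was possible because each label has 1 library. Low counts limit the T and B cell values, where 31 and 26 of the 36 members were measured.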
